A study of Mus musculus with 5 samples.

Results

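The genes described here encode the FOS proteins (*Fos*, *Fosb*, *Fosl2*), the JUN proteins (*Jun*, *Junb*, *Jund*), BATF and BATF3 (*Batf*, *Batf3*) and the repressor BACH2 (*Bach2*). They were taken by name as a gene family, with earlier results of these data known, and make up 9 of the 55487 genes in the count tables. Of the 9 genes, 8 had enough reads to be tested, and *Fosb* did not. All 9 symbols were found in the annotation under a single Ensembl identifier.

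The study asked how loss of the DNA demethylases TET2 and TET3 changes gene expression in CD4 SP cells, the thymocytes that have kept CD4 and lost CD8. RNA was sequenced with SMART-seq, which copies full-length cDNA from little RNA, in 3 wild type (WT) and 2 *Tet2/3* DKO mice (DKO below) with 1 library per mouse. The WT mice were C57BL/6J. The DKO mice were Tet2-/- Tet3flx/flx CD4cre, so that *Tet2* was missing from all cells while *Tet3* was deleted by a Cre under control of *Cd4*, which acts from the double-positive stage of thymic development onwards. All mice were no older than about a month. The sorted cells of both genotypes were live, low for CD24, positive for CD4 and TCRb, and negative for CD8 and for the CD1d tetramer that stains iNKT cells. The WT mice are not described as carrying Cre, so that an effect of Cre cannot be told apart from that of the deletions.

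AP-1 is a dimer of a FOS and a JUN protein, or of a pair of JUN proteins, joined through leucine zippers, and it binds the palindrome TGANTCA. Many of its genes are immediate-early genes, which are transcribed within minutes of a T cell receptor signal through MAP kinases and switched off soon after, and several of them also respond to the handling of tissue. BATF and BATF3 are small partners of JUN proteins that lack an activation domain and bind DNA together with IRF4 or IRF8, while BACH2 pairs with small MAF proteins, occupies related sites and holds effector genes down in naive T cells.

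Reads on genes numbered between 17607089 and 27267031 per library. *Tet3* had 43.8, 45.6 and 52.5 CPM (the count divided by the TMM-scaled library size) in WT replicates 1, 2 and 3, and 20.0 and 13.1 in DKO replicates 1 and 2, a log2 fold change of -1.50 (SE 0.18, adjusted p = 0.00121 by the quasi-likelihood test of edgeR, adjusted by Benjamini-Hochberg over all tested genes). *Tet2* had 52.4 to 57.8 CPM in WT and 91.5 and 58.6 CPM in the DKO libraries, but a count over the whole gene does not test the loss of single exons. DKO replicate 1 stood apart in 5.70% of its reads lying on no annotated gene, against 3.51% to 3.72% in the other 4 libraries. The sex labels did not match the reads in 2 libraries. DKO replicate 1, labelled male, had 744 reads on *Xist* and 7 on 4 Y-linked genes, and WT replicate 1, labelled female, had 0 and 6821. The study's methods describe all these mice as male, so that the reads of WT replicate 1 go with the methods and against its label, and those of DKO replicate 1 go against both. Sex and genotype are therefore partly mixed, and the tested log2 fold changes of members that turn on DKO replicate 1 are given with and without it. *Rag1*, which marks double-positive thymocytes, had no read in any library, and *Cd4* had 572 to 752 CPM in WT and 389 to 433 CPM in DKO libraries.

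The promoters of *Fos*, *Jun*, *Junb* and *Batf* are shown because *Fos*, *Jun* and *Junb* varied between mice of the same genotype and *Batf* differed between the genotypes. Each stretch is RefSeq sequence of GRCm38.p6 before the transcription start, written in the direction of transcription. That of *Batf* stops before the start of the gene model used for the counts, which lies upstream of the RefSeq start from which positions are counted. Capitals mark letters that were searched. TGACG is the core of a CREB or ATF site, and the longer TGACATCA in *Jun* is a variant of it that AP-1 can bind. The capitals nearest the start of *Fos* are a TATA box.
*Fos*, chr12:85473640-85473889, plus strand: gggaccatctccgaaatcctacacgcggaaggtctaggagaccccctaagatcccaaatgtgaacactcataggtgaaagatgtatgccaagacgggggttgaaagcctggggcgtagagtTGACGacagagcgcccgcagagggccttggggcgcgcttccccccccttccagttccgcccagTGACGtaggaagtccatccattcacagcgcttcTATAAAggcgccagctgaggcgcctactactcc
*Jun*, chr4:95052223-95052472, minus strand: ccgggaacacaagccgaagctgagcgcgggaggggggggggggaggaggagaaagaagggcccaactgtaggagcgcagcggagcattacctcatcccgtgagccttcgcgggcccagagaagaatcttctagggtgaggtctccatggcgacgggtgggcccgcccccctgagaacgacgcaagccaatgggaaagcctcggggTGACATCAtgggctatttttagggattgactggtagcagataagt
*Junb*, chr8:84978749-84978998, minus strand: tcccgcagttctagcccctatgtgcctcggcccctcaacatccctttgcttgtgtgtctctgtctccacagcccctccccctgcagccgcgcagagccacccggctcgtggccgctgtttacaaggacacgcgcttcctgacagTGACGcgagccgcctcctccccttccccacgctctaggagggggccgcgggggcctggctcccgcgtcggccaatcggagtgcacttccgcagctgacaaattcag
*Batf*, chr12:85686470-85686668, plus strand: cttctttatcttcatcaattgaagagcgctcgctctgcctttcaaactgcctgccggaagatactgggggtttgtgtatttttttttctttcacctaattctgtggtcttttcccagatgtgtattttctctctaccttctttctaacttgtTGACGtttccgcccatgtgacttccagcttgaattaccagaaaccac

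Motifs were searched on both strands from 250 bases before to 50 bases after each start site. TGACG, which is also contained in the longer site TGACGTCA, lay in the windows of *Fos*, *Fosb*, *Junb* and *Batf*, 4 of the 9 genes, and in 20.8% of all 32841 promoters. *Fos* had it at 129 and at 66 bases before the start, *Junb* at 106, *Batf* at 98 and *Fosb* at 60. TGACATCA was found in *Jun* alone among the 9 genes, 45 bases before its start, and in 3.62% of all promoters. TATAAA lay 33 bases before the start of *Fos* and at the RefSeq start of *Junb*, and in 13.6% of all promoters. The gene model of *Junb* used for the counts starts downstream of this match, at 84978718. The AP-1 site TGANTCA, the full site TGACGTCA and the CArG box bound by SRF were found in none of the 9 windows, against 7.81%, 1.79% and 1.63% of all promoters. Sequence farther upstream was not searched, so that such sites may lie outside the windows. The windows differed in CpG dinucleotides, the substrate of DNA methylation, from 3 in *Jund* and 7 in *Bach2* to 9 in *Batf*, 20 in *Fos* and 34 in *Batf3*, with a median of 7 over all promoters. The RefSeq start was that of the gene model used for the counts in *Fos* and *Jun*, and another site in the other genes. The window of *Bach2*, chr4:32417185-32417484, lay inside its gene model, far from the start at 32238804. That of *Jund*, chr8:70697489-70697788, ended before its gene model, which starts at 70698949. Their CpG counts and missing motifs therefore do not describe the starts of these gene models. A match is a stretch of letters and not a bound site.

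*Fos* encodes the founding AP-1 subunit and lies on chromosome 12 from 85473890 to 85477273 (ENSMUSG00000021250; positions here and below are those of mm10). It had 236, 407 and 175 CPM in WT replicates 1, 2 and 3, and 652 and 240 CPM in DKO replicates 1 and 2. DKO replicate 1 was the highest library, WT replicate 2 the next, and DKO replicate 2 lay within the WT range. The means were 273 ± 120 CPM (SD, n = 3) in WT and 446 ± 291 CPM (SD, n = 2) in DKO cells. The log2 fold change was 0.71 (SE 0.40, 95% interval -0.20 to 1.63) and did not pass the threshold of 0.01 (adjusted p = 0.343, edgeR). The value rested on a single library, since it was -0.18 (adjusted p = 0.759, edgeR) without DKO replicate 1 and 1.24 (adjusted p = 0.00371, edgeR) without DKO replicate 2. A fit with 1 library on a side assumes that this library varies as the others do.

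*Fosl2*, whose protein FRA-2 forms a longer lasting AP-1, lies on chromosome 5 from 32135801 to 32157842 (ENSMUSG00000029135). It was read at a low level, with 1.82, 2.32 and 1.79 CPM in WT and 3.72 and 1.79 CPM in DKO replicates 1 and 2. As for *Fos*, DKO replicate 1 and then WT replicate 2 were the highest, and the groups overlapped. The log2 fold change of 0.52 (SE 0.37, 95% interval -0.30 to 1.35) did not pass the threshold (adjusted p = 0.455, edgeR), and it was -0.13 without DKO replicate 1. *Fosb* (ENSMUSG00000003545, chromosome 7 from 19302696 to 19310051), a close relative of *Fos* that is often induced with it, was all but silent, with 1, 6 and 6 reads in WT and 7 and 8 reads in DKO libraries. It was left out of the test by the filter on low counts. Over the summed reads, 13 in WT and 15 in DKO cells, the ratio per sequenced read was 2.29 (exact 95% interval 1.02 to 5.22, for counting error only).

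*Junb*, which encodes the JUN protein with the highest transcript level in these cells, lies on chromosome 8 from 84974484 to 84978718 (ENSMUSG00000052837). It had 585, 704 and 626 CPM in WT, and 1257 and 492 CPM in DKO replicates 1 and 2. DKO replicate 1 lay above, and DKO replicate 2 below, all 3 WT libraries. The log2 fold change of 0.45 (SE 0.30, 95% interval -0.22 to 1.12) did not pass the threshold (adjusted p = 0.418, edgeR). It changed sign with the library left out, from -0.38 (adjusted p = 0.0337, edgeR) without DKO replicate 1 to 0.96 (adjusted p = 1.06e-05, edgeR) without DKO replicate 2.

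*Jun* encodes c-JUN, the strongest activator among the JUN proteins, and lies on chromosome 4 from 95049034 to 95052222 (ENSMUSG00000052684) in a single exon. It had 43.5, 83.1 and 37.1 CPM in WT and 79.8 and 42.4 CPM in DKO replicates 1 and 2. WT replicate 2 and DKO replicate 1 were the high libraries, and the groups overlapped. The log2 fold change was 0.18 (SE 0.34, 95% interval -0.60 to 0.95, adjusted p = 0.825, edgeR), and it ranged from -0.36 to 0.60 when each library was left out in turn.

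*Jund* (ENSMUSG00000071076, chromosome 8 from 70698949 to 70700616), a JUN gene that is usually transcribed without a stimulus, was the member whose level depended most on how reads were counted. The antisense gene *Gm11175* covers 52.58% of its exon, and reads that lie on both genes were left out of the main counts, which take no account of strand. These gave 15.7, 13.4 and 20.1 CPM in WT and 22.9 and 20.4 CPM in DKO libraries, all DKO values lying above all WT values. The log2 fold change of 0.40 (SE 0.18, 95% interval -0.02 to 0.81) did not pass the threshold (adjusted p = 0.238, edgeR). When the reads counted on either strand were added, *Jund* had 216, 222 and 297 CPM in WT and 381 and 254 CPM in DKO replicates 1 and 2, and the groups overlapped. The gain was 1274% to 1728% of the reads for *Jund*, 35.3% to 41.5% for *Jun* (beside *Junos*) and 25.7% to 35.9% for *Bach2* (beside *Bach2os*), and at most 0.030% for each of the other members with reads. The kit does not mark strand, so that reads of these genes cannot be told apart from reads of their antisense partners.

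**Figure D1:**
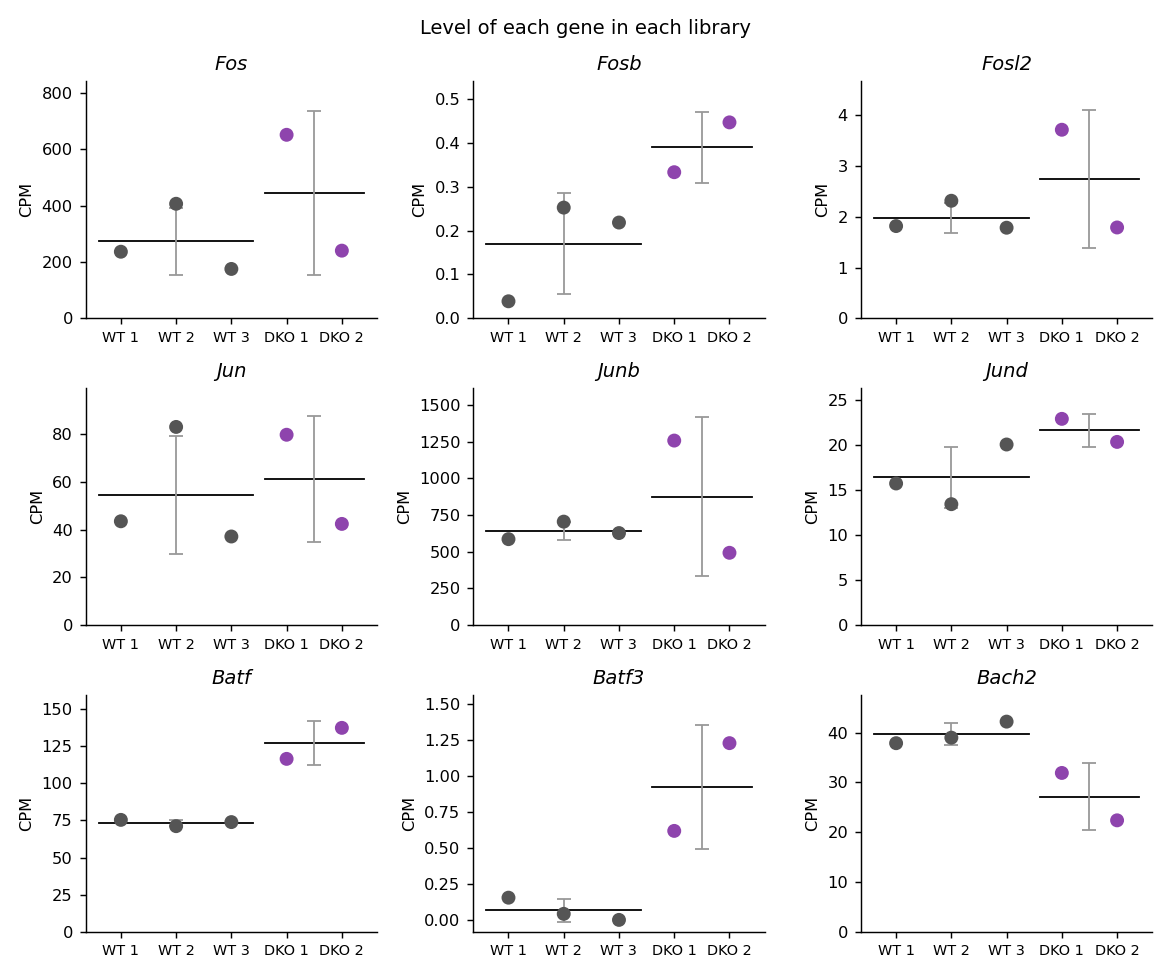
Level of each gene in CPM (linear axes that differ between panels) in the 3 WT and 2 DKO libraries, one point per mouse, with the mean as a line and the SD as a bar. DKO replicate 1 is high for *Fos*, *Fosl2* and *Junb*, whereas both DKO libraries lie above all WT libraries for *Batf* and *Batf3* and below them for *Bach2*.

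In the main counts, *Fos*, *Jun*, *Junb* and *Fosl2* varied more between the DKO mice than *Jund*, *Batf* and *Bach2* did. The ratio of DKO replicate 1 to replicate 2 was 2.71 for *Fos*, 2.55 for *Junb*, 2.08 for *Fosl2* and 1.88 for *Jun*, and it was 1.13 for *Jund*, 0.848 for *Batf* and 1.43 for *Bach2*. For *Jund* the main counts leave out most reads. With the reads of either strand added, *Jund* had 381 and 254 CPM in DKO replicates 1 and 2, and replicate 1 was its highest library. *Batf3*, with few reads, had a ratio of 0.504, so that replicate 2 was the higher. Among the WT libraries the highest level was 2.32 times the lowest for *Fos* and 2.24 times for *Jun*, but 1.20 times for *Junb*. The order of DKO replicate 1 first and WT replicate 2 second was shared by *Fos*, *Fosl2* and *Junb*, 3 of the 8 tested members, and was found in 736 of all 13525 tested genes, or 5.44%. A level in DKO replicate 1 of at least 1.5 times that in replicate 2 was found in 4 of the 8 members and in 11.2% of all tested genes. This ratio and the order of the libraries were chosen after the values of the members were seen, so that these shares are descriptions.

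**Figure D2:**
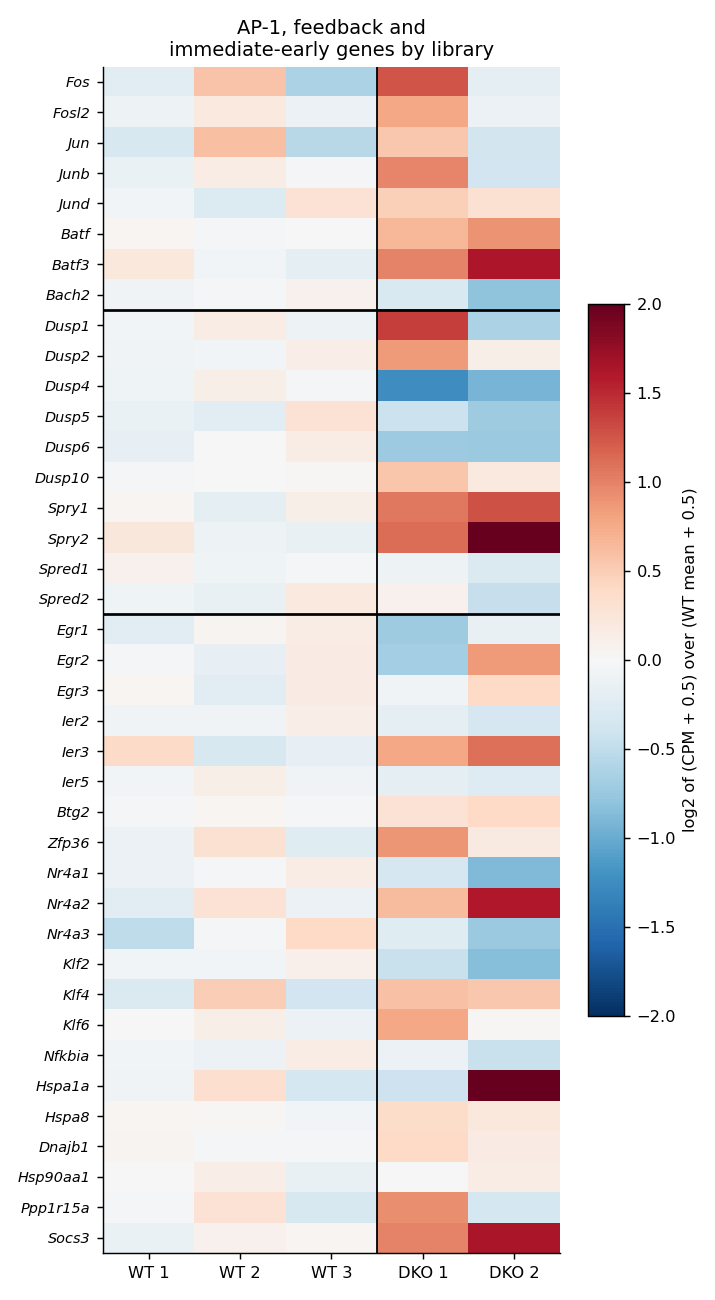
Log2 of each library's CPM over the mean of the WT libraries, with 0.5 added to both (colour scale in log2 units that ends at 2), for the tested members, feedback inhibitors and immediate-early genes, one row per gene and one column per mouse. The column of DKO replicate 1 is high for *Fos*, *Junb*, *Fosl2* and *Dusp1* and low for *Egr1*.

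*Batf* encodes the BATF protein, which is needed for several helper T cell fates, and lies on chromosome 12 from 85686669 to 85709087 (ENSMUSG00000034266). It had 75.3, 71.1 and 73.9 CPM in WT and 116 and 137 CPM in DKO replicates 1 and 2. Both DKO libraries lay above all WT libraries, which differed among themselves by no more than 1.06 times. *Batf* rose from 73.4 ± 2.14 CPM (SD, n = 3) to 127 ± 14.8 CPM (SD, n = 2), a ratio of 1.73. Its log2 fold change was 0.79 (SE 0.10, 95% interval 0.56 to 1.02) and its adjusted p was 0.00173 (edgeR). It was the only one of the 8 tested members past the threshold, and 3.92% of all 13525 tested genes passed it in either direction and 2.42% as increases. The increase was 0.90 without DKO replicate 1 and 0.65 without replicate 2. Leaving out WT replicate 1, 2 or 3 left a log2 fold change of 0.76 to 0.81 but an adjusted p of 0.0158 to 0.0193 (edgeR), above the threshold. Over all alternatives the adjusted p of *Batf* lay between 1.42e-09 (DESeq2) and 0.0193. DESeq2 also called *Batf* as the only member at 0.01, against 6.91% of the genes it tested.

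*Batf3* (ENSMUSG00000026630, chromosome 1 from 191097847 to 191108945), best known for its role in dendritic cells and also induced in activated T cells, was close to absent in WT. It had 4, 1 and 0 reads in WT replicates 1, 2 and 3 and 13 and 22 reads in DKO replicates 1 and 2, so that the groups did not overlap. The summed reads, 5 against 35, gave a ratio of 13.9 per sequenced read (exact 95% interval 5.41 to 45.4, for counting error only). The fitted log2 fold change of 3.69 (SE 0.80) did not pass the threshold (adjusted p = 0.0132, edgeR). It ranged from 3.09 to 5.18 when each library was left out, and its adjusted p over all alternatives from 0.00274 (edgeR, without DKO replicate 1) to 0.0982 (edgeR, without WT replicate 2). At an adjusted p of 0.05 *Batf* and *Batf3*, 2 of the 8 members, would pass, as would 8.67% of all tested genes. *Batf3* passed the filter on low counts only through the DKO libraries, where it was high, so that its place among the tested members is no support for a difference. The level of *Batf3* remained low, with 0.620 and 1.23 CPM in the DKO libraries.

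*Bach2* lies on chromosome 4 from 32238804 to 32586108 (ENSMUSG00000040270). It had 37.9, 39.0 and 42.2 CPM in WT and 31.9 and 22.4 CPM in DKO replicates 1 and 2. Both DKO libraries lay below all WT libraries, with means of 39.7 ± 2.25 CPM (SD, n = 3) in WT and 27.1 ± 6.73 CPM (SD, n = 2) in DKO cells. The log2 fold change of -0.54 (SE 0.16, 95% interval -0.89 to -0.19) did not pass the threshold (adjusted p = 0.0680, edgeR). With the reads of either strand added it was -0.62 (adjusted p = 0.0290, edgeR), with DESeq2 -0.55 (adjusted p = 0.0194), and over all alternatives the adjusted p lay between 0.00101 and 0.205. *Bach2* passed only without DKO replicate 1, at -0.83 (adjusted p = 0.00101, edgeR), and was at -0.33 without replicate 2. The ratio of *Batf* to *Bach2* in CPM, which is not scaled by gene length and compares libraries only, was 1.99, 1.82 and 1.75 in WT and 3.65 and 6.14 in DKO libraries.

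**Figure D3:**
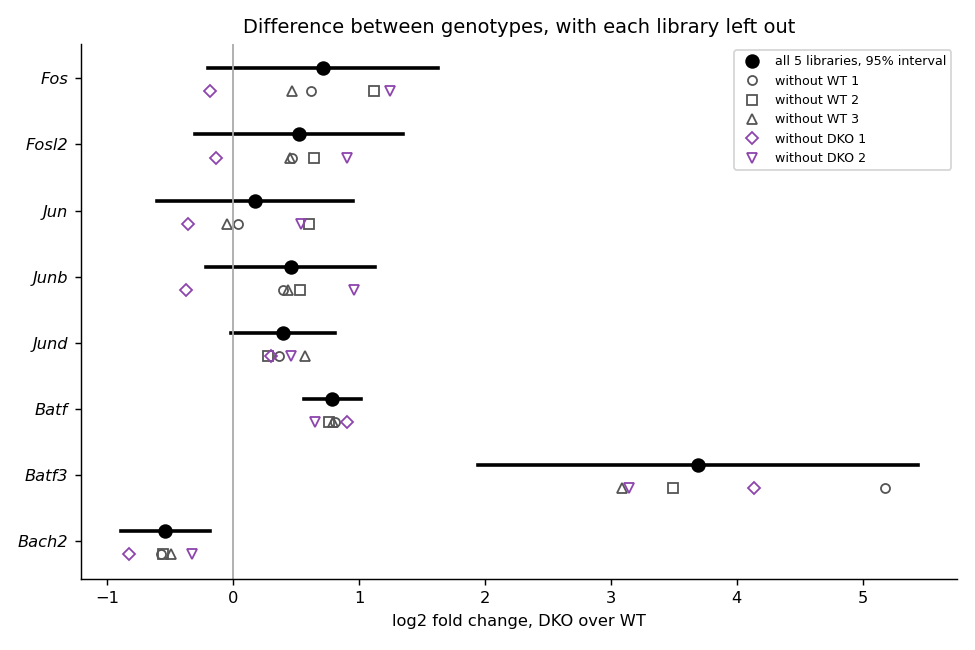
Log2 fold change of each tested member, DKO minus WT, from edgeR (points) with its 95% interval (bars), above the values without each library in turn (open symbols). The interval of *Batf* lies from 0.56 to 1.02, and the values of *Fos*, *Fosl2*, *Jun* and *Junb* are below 0 without DKO replicate 1.

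Across the members, *Jund*, *Batf* and *Batf3* had both DKO libraries above all WT libraries, 3 of the 8 tested, against 19.6% of all tested genes. For *Jund* this held only in the main counts and not with the reads of either strand added, and *Batf3* was tested only because of its DKO reads. Only *Bach2* had them below, 1 of 8, against 19.5% of all tested genes. The median log2 fold change of the 8 members was 0.49, and that of all tested genes 0.0076. The median of the members turned to -0.16 without DKO replicate 1 and was 0.78 without replicate 2. The number of members past the threshold was 0 without any 1 of the WT replicates, 3 without DKO replicate 1 (*Batf*, *Batf3* and *Bach2*) and 3 without replicate 2 (*Fos*, *Junb* and *Batf*). The number over all genes moved in the same way, from 530 to between 110 and 152 without a WT replicate, 1311 without DKO replicate 1 and 1148 without replicate 2. In bulk RNA, a lower or higher share of cells with a transcript and a lower or higher amount per cell cannot be told apart.

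The order of the members by level was taken from CPM per kilobase of exon, with the reads of either strand added. In WT the order was *Junb* (252 ± 23.8), *Jund* (147 ± 26.9), *Fos* (105 ± 46.3), *Batf* (47.4 ± 1.42), *Jun* (21.5 ± 9.85), *Bach2* (4.90 ± 0.237), *Fosl2* (0.185 ± 0.0279), *Batf3* (0.0373 ± 0.0455) and *Fosb* (0.0247 ± 0.0167 CPM per kilobase, SD, n = 3). *Jund* and *Fos* overlapped between libraries, as did *Batf3* and *Fosb*, and the other neighbours did not. In DKO cells the order was *Junb* (346 ± 214), *Jund* (191 ± 53.8), *Fos* (173 ± 113), *Batf* (82.1 ± 9.52), *Jun* (24.3 ± 10.4), *Bach2* (3.18 ± 0.691), *Batf3* (0.527 ± 0.246), *Fosl2* (0.259 ± 0.128) and *Fosb* (0.0569 ± 0.0117 CPM per kilobase, SD, n = 2). *Junb*, *Jund* and *Fos* overlapped there, and in replicate 2 *Batf*, at 88.8, came close to *Fos*, at 92.8. *Batf* made up 7.04% to 9.32% of the summed level of the 9 genes in WT, 6.92% in DKO replicate 1 and 16.2% in replicate 2. The sum itself was 523, 652 and 560 CPM per kilobase in WT and 1089 and 549 in DKO replicates 1 and 2, so that the low share in replicate 1 stood beside high *Junb* and *Fos*.

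**Figure D4:**
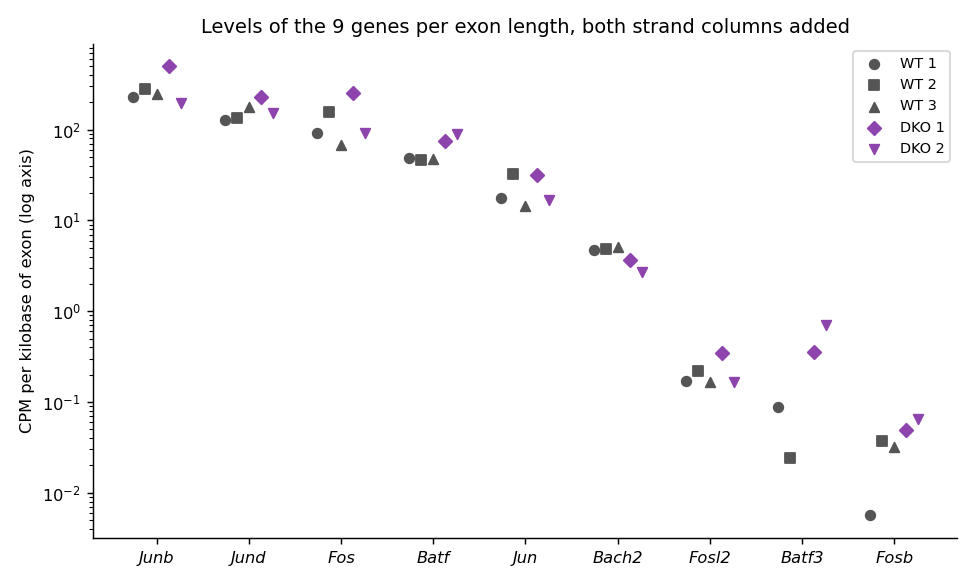
Level of the 9 genes in CPM per kilobase of exon (log axis), one point per library, with reads of either strand added and WT replicate 3 left out for *Batf3*, where it had 0 reads. *Junb*, *Jund* and *Fos* lie highest in every library, and *Fosl2*, *Batf3* and *Fosb* lowest.

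Other genes of the pathway were read from 8 lists by role, which hold 97 distinct genes, of which 91 were tested. Across the lists 7 genes rose and 1 fell in the DKO cells, or 8.79% of the 91, against 3.92% of all tested genes. These lists were chosen with results of these data known, and their counts are not independent evidence.

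Among 8 other family members and small partners, 4 were tested and *Mafg*, a small MAF protein that pairs with BACH proteins, rose. It had 6.23, 7.71 and 7.43 CPM in WT and 13.9 and 14.0 CPM in DKO libraries, a log2 fold change of 0.97 (SE 0.17, adjusted p = 0.00917, edgeR). *Fosl1*, *Batf2*, *Atf3* and *Jdp2* had too few reads to be tested. Of 15 other bZIP factors of the ATF, CREB and large MAF kind, all tested, *Maf* rose. This gene of c-MAF, a factor of helper T cells and of cells that make IL-4, went from 2.13, 2.82 and 2.41 CPM in WT to 9.01 and 33.3 CPM in DKO replicates 1 and 2 (log2 fold change 3.09, SE 0.52, adjusted p = 0.00652, edgeR). Its values without DKO replicate 1 and replicate 2 were 3.77 and 1.87, so that the size rests on the replicate used.

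The factors that bind DNA beside AP-1 or BATF, 8 in all, gave no call. *Ets1*, with the most reads, had 769 to 830 CPM in WT and 659 and 669 CPM in DKO libraries (log2 fold change -0.26, SE 0.08, adjusted p = 0.0762, edgeR). *Nfatc1*, an NFAT gene with the next most reads, had a log2 fold change of 0.17 (SE 0.16, adjusted p = 0.591, edgeR). *Irf4* and *Irf8*, partners of BATF named here for that role, did not pass either, at 0.45 (SE 0.24) and 0.08 (SE 0.22). None of the 16 genes of the MAP kinase and SRF list passed, and their median log2 fold change was -0.15. *Map2k2*, which encodes the kinase MEK2 and had among the most reads of the list, stood at -0.15 (SE 0.09, adjusted p = 0.341, edgeR).

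Among 10 genes that limit MAP kinase signals, *Spry1* rose and *Dusp6* fell. *Dusp6*, a MAP kinase phosphatase, had 79.3, 88.4 and 97.7 CPM in WT and 53.3 and 52.5 CPM in DKO libraries (log2 fold change -0.74, SE 0.12, adjusted p = 0.00440, edgeR). *Spry1*, an inhibitor of receptor signals to MAP kinases, had 4.53, 3.79 and 4.81 CPM in WT and 9.68 and 11.2 CPM in DKO libraries (log2 fold change 1.25, SE 0.21, adjusted p = 0.00600, edgeR). In both genes the groups did not overlap. *Dusp1*, an immediate-early phosphatase picked here after its values were seen, followed *Fos* instead, with 298, 342 and 287 CPM in WT and 804 and 199 CPM in DKO replicates 1 and 2.

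Of 22 immediate-early and dissociation genes, 21 were tested and only *Socs3*, a feedback inhibitor of cytokine signals, passed. It rose from 16.1, 18.9 and 18.1 CPM in WT to 35.5 and 55.8 CPM in DKO libraries (log2 fold change 1.36, SE 0.19, adjusted p = 0.00233, edgeR). The order of the libraries seen in *Fos*, chosen from the members' values, was found in 3 of the 21, or 14.3%, and in 5.44% of all tested genes, which is given as a description. *Ppp1r15a*, a stress-induced phosphatase subunit, was highest in DKO replicate 1 at 539 CPM against 223 in replicate 2, and so was *Zfp36*, which encodes an RNA decay factor, at 252 against 155 CPM. *Egr1*, in contrast, had its lowest level in that library, at 74.8 CPM against 105 to 137 in WT and 111 in DKO replicate 2, and *Nr4a1* had 157 and 107 CPM against 182 to 220 in WT. These 4 genes were picked after their values were seen. A part of the handling of tissue in the levels of *Fos*, *Junb* and *Dusp1* was not tested.

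Of 10 activation genes with AP-1 or NFAT:AP-1 sites, *Il4* and *Icos* rose, with none lower past the threshold and a median log2 fold change of 0.79. *Icos*, a costimulatory receptor, had 263, 252 and 298 CPM in WT and 437 and 710 CPM in DKO libraries (log2 fold change 1.08, SE 0.17, adjusted p = 0.00532, edgeR), and its log2 fold change was 1.39 without DKO replicate 1 and 0.67 without replicate 2. *Il4*, the cytokine of type 2 helper and iNKT cells, was low throughout at 0.474 to 0.696 CPM in WT and 2.77 and 3.41 CPM in DKO libraries (log2 fold change 2.32, SE 0.35, adjusted p = 0.00404, edgeR). Of the 10 genes that BACH2 is known to restrain, 9 were tested and *Ccr4*, a chemokine receptor, rose. It had 7.58, 9.86 and 10.7 CPM in WT and 20.1 and 27.2 CPM in DKO libraries (log2 fold change 1.33, SE 0.20, adjusted p = 0.00345, edgeR), and the median of the list was 0.98. Both DKO libraries lay above all WT libraries in 3 of the 9 tested genes and below them in 1, *Gata3*. The log2 fold changes of *Gata3* (-0.517), *Prdm1* (-0.310) and *Il1rl1* (-0.132) were negative without passing the threshold. Those of the other tested genes of the list were positive. These negative genes were picked after their values were seen. DKO replicate 2 was the highest library in 7 of the 10 tested activation genes and in 7 of the 9 tested genes that BACH2 restrains, and in each list 1 gene was higher in DKO replicate 1 than in replicate 2. Of all 13525 tested genes, 3300 were highest in DKO replicate 2, and 6794 were higher in DKO replicate 1 than in replicate 2. These counts are given as descriptions. Over the alternatives the adjusted p of each of these 8 called genes went above the threshold at least once, reaching 0.0255 for *Socs3*, at the lowest, and 0.0780 for *Maf*, at the highest.

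**Figure D5:**
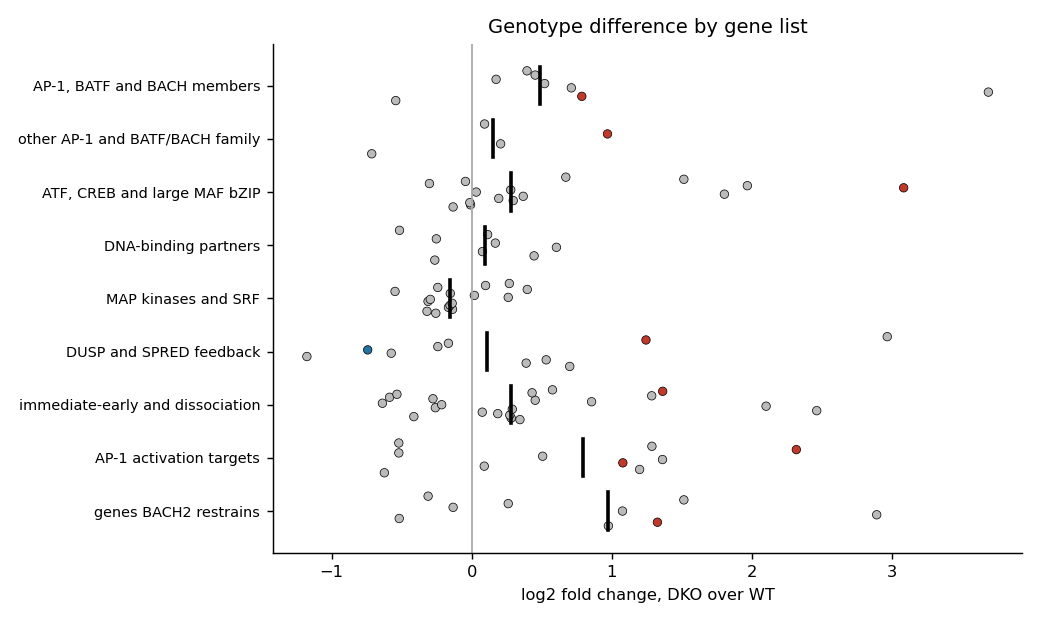
Log2 fold change, DKO minus WT, of each tested gene among the members and the 8 lists, one point per gene, with the median of each list as a line in black, and genes past the threshold in red (higher) or blue (lower). Between 0 and 2 genes passed in each list, and the medians lay between -0.15 and 0.98.

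*Trgv2*, a T cell receptor gamma gene, and *Cst7* were among the 3 genes whose pattern over the 5 libraries was most like that of *Batf*. Their Pearson correlations of log2 CPM with *Batf* were 0.9988 and 0.9985, among 8394 genes compared. The libraries fall into 2 genotypes, and 272 genes reached a correlation of 0.95. *Cst7*, which encodes the protease inhibitor cystatin F, went from 14.8 ± 0.804 CPM (SD, n = 3) to 176 ± 75.0 CPM (SD, n = 2).

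Markers of other T cells moved with the rise of *Batf* and with the levels of *Batf3* and *Bach2*. The summed level of 4 gamma-delta T cell markers was 27.4 to 29.6 CPM in WT and 234 and 376 CPM in DKO replicates 1 and 2, and 3 of them rose (*Tcrg-C1*, *Tcrg-C2* and *Tcrg-C4*), while *Trdc*, the defining delta chain, had 11.7 to 16.7 CPM in WT and 18.3 and 15.3 CPM in DKO cells. That of 3 iNKT cell markers was 4.76 to 7.19 CPM in WT and 26.0 and 50.6 CPM in DKO cells, and 2 of them rose (*Zbtb16* and *Klrb1c*). NK cell markers, 2 of 3 higher past the threshold (*Ncr1* and *Klrd1*), stood at 3.08 to 4.25 CPM in WT and at 16.8 and 28.8 CPM in DKO cells. *Klra8* was not tested. *Ncr1* had 1, 0 and 0 reads in WT and 31 and 40 in DKO libraries, and passed the filter only through the DKO libraries. Regulatory T cell markers, 1 of 5 lower past the threshold, stood at 347 to 415 CPM in WT and at 265 and 301 CPM in DKO cells, with *Foxp3* at 44.4, 58.1 and 54.3 CPM in WT and 17.9 and 24.3 CPM in DKO cells. *Tnfrsf18*, the largest part of that sum, had 219, 185 and 244 CPM in WT and 161 and 147 CPM in DKO libraries. It was lower without passing the threshold (adjusted p = 0.0394, edgeR). Other markers of that list went differently, with *Ikzf2* at 20.4 to 27.4 CPM in WT and 43.2 and 18.3 CPM in DKO replicates 1 and 2, *Ctla4* at 46.1 to 52.1 CPM in WT and 30.9 and 72.9 CPM in these, and *Il2ra* at 33.7 to 37.4 CPM in WT and 11.4 and 38.3 CPM in these. No cell type marker but *Rag1* was at 0 in every library. The sort had taken cells positive for TCRb and left out those stained by the CD1d tetramer. The part of such cells in the levels of *Batf*, *Batf3* and *Bach2* was not tested.

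Of 5 myeloid markers none passed the threshold, with sums of 6.996 to 12.96 CPM in WT and 21.4 and 47.9 CPM in DKO replicates 1 and 2. The 3 tested markers had both DKO libraries above all WT libraries (adjusted p 0.0142 for *Lyz2*, 0.0294 for *Csf1r* and 0.108 for *Fcer1g*, edgeR). *Lyz2* made up most of the sum, with 5.83 to 10.8 CPM in WT and 18.6 and 42.5 CPM in DKO libraries. *Itgax*, the CD11c gene that defines the dendritic cells in which *Batf3* is best known, had at most 0.112 CPM in any library. *Itgax* and *Cd14* had too few reads to be tested. The part of myeloid cells in the level of *Batf3* was not tested. B cell markers had 5.61 to 6.92 CPM in WT and 9.11 and 8.17 CPM in DKO libraries, and thymic epithelium markers 9.09 to 12.2 CPM in WT and 10.6 and 34.0 CPM in DKO libraries, with none past the threshold in either list. Erythroid markers were at or below 0.336 CPM, and those of double-positive thymocytes at or below 1.93 CPM. Of 2 CD8 markers *Cd8b1* fell, and *Cd8a* had 2.71, 2.91 and 5.39 CPM in WT and 5.77 and 8.67 CPM in DKO cells without passing the threshold. Their sum, mostly *Cd8b1*, was 68.8 to 77.1 CPM in WT and 34.3 and 35.8 CPM in DKO cells. *Cd4* and *Cd5* fell among 5 markers of CD4 T cells, whose sum was 6058 to 6335 CPM in WT and 5866 and 4930 CPM in DKO cells. Cycling cell markers, with none past the threshold, stood at 411 to 500 CPM in WT and at 269 and 499 CPM in DKO replicates 1 and 2.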

How the data were processed

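The authors converted base calls with bcl2fastq 2.20.0, trimmed reads with fastp 0.21.0, aligned them to mm10 with STAR 2.7.5a, counted them on the genes of the GRCm38.100 annotation, and deposited counts of reads per gene for each library, without normalization or pooling. Tool versions are those of the submitters' processing notes. Multimapping reads, and reads on more than 1 gene, do not enter these counts. The tables hold a count without regard to strand, used for the main tests, and a count for each strand. The deposited clonotype files were not used here.

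Counts were tested with edgeR 4.0.16 in R 4.3.3 (quasi-likelihood test with its newer dispersion moderation, TMM scaling, filterByExpr with a minimum count of 10, Benjamini-Hochberg adjustment over 13525 genes, adjusted p-value threshold 0.01 as in the paper). The SE is the size of the log2 fold change over the root of F. The 5 libraries are separate mice. DESeq2 1.42.0, other size factors, no filter on low counts, other moderation, both strand columns added, a replicate block, a threshold of 0.05 and leaving out each library were tried. The fit was tested on simulated data. Symbols, coordinates and exon lengths came from GENCODE M21 (GRCm38), promoters from RefSeq (GRCm38.p6). Levels per kilobase use the sum of both strand columns.

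The members, lists and markers were chosen with earlier results of these data known. The text names all members, each list's genes past the threshold (the 2 with the highest mean CPM where none passed), the 3 genes most like each called member (average log2 CPM at or above 3), the targeted and sex-linked genes, and genes said to be picked later. Of these, 2 genes are not reported here. The 8 lists cover other family members, other bZIP factors, DNA-binding partners, MAP kinases with SRF, their feedback inhibitors, immediate-early genes, activation targets and genes BACH2 restrains. *Ddit3* was left out because its symbol has more than 1 identifier. The variant site TGACATCA was added to the motifs after the *Jun* promoter was read.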

Additional observations from a re-analysis of the deposited data

How the results depend on the processing

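The number of members past the threshold was 1 under 7 alternatives, ranged from 0 to 3 when each library was left out in turn, and was 2 at an adjusted p of 0.05. The number over all genes was 530, ranged from 110 (without WT replicate 2) to 1311 (without *Tet2/3* DKO replicate 1) when each library was left out, and was 1027 with DESeq2 and 1173 at 0.05. Of 96 log2 fold changes of members under alternatives, 83 kept direction and side of the threshold. Without *Tet2/3* DKO replicate 1 *Fos* (-0.18), *Fosl2* (-0.13), *Jun* (-0.36) and *Junb* (-0.38) changed sign. With each library left out, log2 fold changes ranged from -0.18 to 1.24 for *Fos*, -0.13 to 0.91 for *Fosl2*, -0.36 to 0.60 for *Jun*, -0.38 to 0.96 for *Junb* and -0.096 to 0.39 for *Nfatc1*. The cause was not tested.

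With a replicate block, *Jun* was at -0.039, *Batf* kept a log2 fold change of 0.79 (adjusted p = 0.00974, edgeR) and 1 member passed. The numbers name different mice, and deviations from the group means of same-numbered mice correlated across genes at 0.0151 and 0.00446, so that the libraries share only a number. With 3 against 2 mice and low counts in *Fosb* and *Batf3*, depth and number limit what could be seen.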
